A study of Mus musculus with 8 samples.

Results

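The 35 genes described here encode proteins that build ribosomes: nucleolar organisers, the core proteins of small nucleolar ribonucleoprotein particles (snoRNPs), assembly factors of both ribosomal subunits, and subunits and the initiation factor UBTF of RNA polymerase I. The list is one of gene symbols and uses no measured value as a rule, but it was drawn up with earlier results of these data known. All 35 were found among the 55421 genes of the deposited count table. All 35 also passed the filter on low counts that left 15137 genes for testing, so no member was lost. The data are RNA-seq counts from the 3′ ends of polyadenylated RNA (QuantSeq, a kit that gives about 1 read position per transcript) in E14 mouse embryonic stem cells (mESCs).

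There were 4 groups of 2 libraries, which the series describes as biological duplicates. The KO group was miR-290-295 knockout cells with no transfection, and its comparison group, WT, was wild-type mESCs with no transfection. The siTfap4 group was the same knockout genotype transfected for 36 hours with 5 nM of a siPOOL (a complex pool of small interfering RNAs) against Tfap4, a transcription factor of the basic helix-loop-helix class. Its comparison group, siNeg, was knockout cells given a negative control siPOOL at the same dose and time. All cells had a 129/Ola background and grew in serum with LIF on gelatin. KO and WT libraries made up one preparation and sequencing set and the 4 siPOOL libraries another, so each comparison lies within 1 set and the 2 comparisons share no library. No wild-type cells received a siPOOL. Sample titles carry suffixes with no stated meaning, one of which, CC, is shared by KO replicate 2 and WT replicate 1, and they were not used to pair libraries. The labels do not say whether the KO duplicates are separate clones or how the duplicates were separated, so p-values measure the spread between these libraries.

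Ribosome production starts in the nucleolus, where RNA polymerase I copies the ribosomal DNA into a long precursor RNA. Box C/D and box H/ACA snoRNPs methylate and pseudouridylate that precursor, a large complex called the small subunit processome cuts and folds its 5′ part, and a further series of factors assembles the large subunit. Genes of this pathway are known targets of MYC, which binds the E-box CACGTG, and their RNA is abundant in fast-dividing cells such as embryonic stem cells. The RNA counted here is the messenger RNA of these proteins, and ribosomal RNA itself was not measured. Counts were not divided by gene length, so levels are compared between groups and not between genes.

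MicroRNAs of the cluster removed by the knockout are shown because its loss defines the KO group. The RefSeq table of GRCm38.p6 was searched under a fixed list of gene symbols of the cluster. From it came the 5 mature 3p microRNAs whose bases 2 to 7 read AAGUGC. Mature microRNAs found without these bases are not shown. The search gave no miR-292 microRNA with these bases, and cluster genes under symbols outside the list were not searched. The 5 therefore need not be all of the cluster's microRNAs with these bases. The 5 lie on the plus strand of chromosome 7, between chr7:3218674-3218697 for miR-290a-3p and chr7:3220815-3220837 for miR-295-3p. Their seeds, bases 2 to 8, are in capitals.

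miR-290a-3p: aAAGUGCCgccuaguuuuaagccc
miR-291a-3p: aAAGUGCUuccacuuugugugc
miR-291b-3p: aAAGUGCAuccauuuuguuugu
miR-294-3p: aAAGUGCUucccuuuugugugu
miR-295-3p: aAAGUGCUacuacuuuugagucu

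The first 6 seed bases are the same in all 5 because the sequences were chosen by them. The last seed base separates miR-290a-3p and miR-291b-3p from the other 3. The matching 6 bases GCACTT occurred in the longest annotated 3′ UTR of 5 of 35 members (14.3%), against 4240 of 12780 tested genes with a 3′ UTR (33.2%). The 5 were Ncl and Nop58 with 4 matches each, and Dkc1, Wdr12 and Polr1a with 1 each. Their longest annotated 3′ UTRs had 5901 bases in Ncl, 7723 in Nop58, 1016 in Dkc1, 8379 in Wdr12 and 3960 in Polr1a. The members' 3′ UTRs had a median length of 498 bases, against 1157 bases for tested genes, and shorter sequences hold fewer matches of any kind.

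Promoters were searched because the agent of the siPOOL comparison targets an E-box factor. Stretches of 250 bases before to 50 bases after each start were read from RefSeq's promoter table of GRCm38.p6, which matched 29 of 35 members. The promoters of Fbl, Npm1, Rrp12, Tcof1, Rrs1 and Bop1 are not shown. The E-box CACGTG, the core that MYC binds, was in a promoter of 6 of these 29 genes (20.7%), against 11.8% of tested genes with a promoter in the table. The E-box CAGCTG, the core that TFAP4 is known to bind, was in 6 of 29 (20.7%), against 18.3% of tested genes. Both motifs read the same on both strands, and a match of one cannot overlap a match of the other. A match is a description of letters and not a bound site.

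The 4 promoters below are members with a CACGTG, in capitals, and Pes1 also holds a CAGCTG. Wdr43 (chr17:71615965-71616264, plus strand) has CACGTG 17 bases after the first transcribed base, Mybbp1a (chr11:72441077-72441376, plus strand) 40 bases after it, and Pes1 (chr11:3963725-3964024, plus strand) 2 bases after it. Nop2 (chr6:125131633-125131932, plus strand) has it 60 bases before the start. All 4 run 5′ to 3′ on the gene's strand.

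Wdr43: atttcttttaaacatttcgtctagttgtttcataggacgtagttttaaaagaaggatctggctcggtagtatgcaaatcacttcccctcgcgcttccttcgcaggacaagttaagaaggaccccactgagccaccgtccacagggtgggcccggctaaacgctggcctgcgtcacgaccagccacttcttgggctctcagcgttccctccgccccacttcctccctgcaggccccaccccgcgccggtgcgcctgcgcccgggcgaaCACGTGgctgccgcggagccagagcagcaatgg
Mybbp1a: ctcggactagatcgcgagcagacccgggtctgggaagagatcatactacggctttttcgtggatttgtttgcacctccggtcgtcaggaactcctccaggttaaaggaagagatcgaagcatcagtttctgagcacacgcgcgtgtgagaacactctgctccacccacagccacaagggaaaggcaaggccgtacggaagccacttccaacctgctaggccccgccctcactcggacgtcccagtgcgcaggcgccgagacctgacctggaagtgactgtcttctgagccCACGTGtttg
Pes1: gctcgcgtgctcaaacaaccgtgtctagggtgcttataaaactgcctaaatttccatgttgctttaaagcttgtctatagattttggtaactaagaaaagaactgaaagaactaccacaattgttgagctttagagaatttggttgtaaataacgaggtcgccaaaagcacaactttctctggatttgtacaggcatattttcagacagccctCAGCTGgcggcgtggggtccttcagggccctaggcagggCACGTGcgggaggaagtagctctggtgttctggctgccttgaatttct
Nop2: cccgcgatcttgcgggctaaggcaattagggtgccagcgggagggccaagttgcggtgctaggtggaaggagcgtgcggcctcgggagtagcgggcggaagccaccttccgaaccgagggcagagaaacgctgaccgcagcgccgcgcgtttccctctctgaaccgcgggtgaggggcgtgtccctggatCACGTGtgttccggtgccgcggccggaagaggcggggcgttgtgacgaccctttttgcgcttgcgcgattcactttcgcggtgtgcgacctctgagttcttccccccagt

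Gar1 and Ddx21 are shown as well, chosen after their values were seen, since they had the largest fall with the Tfap4 siPOOL and the largest fall in KO cells among the 35. Gar1 (chr3:129831347-129831646, minus strand) has CAGCTG 102 bases before its start, and Ddx21 (chr10:62602249-62602548, minus strand) 219 bases before its start. Their CAGCTG is in capitals.

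Gar1: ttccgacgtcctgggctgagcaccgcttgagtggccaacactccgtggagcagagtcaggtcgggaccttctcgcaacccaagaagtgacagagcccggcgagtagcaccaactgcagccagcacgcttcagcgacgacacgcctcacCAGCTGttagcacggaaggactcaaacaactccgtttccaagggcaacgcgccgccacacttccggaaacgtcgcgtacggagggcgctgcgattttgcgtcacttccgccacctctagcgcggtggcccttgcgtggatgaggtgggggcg
Ddx21: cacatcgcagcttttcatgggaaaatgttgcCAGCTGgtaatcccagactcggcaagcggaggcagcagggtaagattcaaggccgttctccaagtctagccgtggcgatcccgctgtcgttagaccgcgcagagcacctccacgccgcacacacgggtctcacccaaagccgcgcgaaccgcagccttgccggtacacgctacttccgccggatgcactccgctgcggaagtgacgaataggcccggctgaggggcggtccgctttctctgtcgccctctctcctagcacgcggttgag

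Of the 6 members with CACGTG, Nop2 was lower in KO cells and Wdr43 higher in siTfap4 cells in the tests below, and Utp4, Utp20, Pes1 and Mybbp1a were called in neither. Of the 6 with CAGCTG, Ddx21 fell in KO cells and Gar1 fell in siTfap4 cells, while Nop14, Rrp9, Pes1 and Ubtf were called in neither. Of all 35 members, 5.71% were called in KO against WT and 20% in siTfap4 against siNeg. Of all tested genes, 9.95% and 15.4% were called. A link between motifs and changes was not tested.

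Library totals ranged from 8326675 counts (siTfap4 replicate 1) to 12726123 counts (KO replicate 1), and 19271 to 21183 genes had at least 1 count. Tfap4 itself had 49.0 and 42.1 CPM (counts scaled to the library total with TMM factors) in KO cells, against 19.7 and 16.4 CPM in WT cells, and 12.4 and 15.8 CPM in siTfap4 cells, against 34.4 and 37.4 CPM in siNeg cells. It was called in both comparisons (edgeR quasi-likelihood test, adjusted p = 0.00363 and 0.00365), though not without KO replicate 1 (0.0533) or siTfap4 replicate 1 (0.0575). None of 10 embryonic stem cell markers was at 0 in any library. Marker sums in this paragraph are CPM of the library total without TMM factors. The stem cell marker sum was 3088 to 3112 CPM in siTfap4 libraries and 3672 to 4116 CPM in the other libraries. TMM factors were 0.944 and 0.962 in siTfap4 libraries and 0.958 to 1.04 in the other libraries. In siTfap4 against siNeg Dppa5a (-6.05) and Nanog (-1.49) were called lower and Pou5f1 (1.02) and Dppa4 (0.78) higher, and in KO against WT Utf1 (-0.92) was lower and Fgf4 (0.80) higher. Of 8 fibroblast or feeder markers, 4 or 5 were at 0 in every library. Their sum was 12.1 and 23.1 CPM in KO libraries against 31.2 and 56.7 CPM in WT libraries, with Col1a1 (-2.20) and Thy1 (-1.35) called lower, and it was 9.37 and 7.36 CPM in siTfap4 libraries against 14 and 10.9 CPM in siNeg libraries. Of 8 primitive endoderm markers at most 1 was at 0, and their sum was 25.5 and 23.5 CPM in KO libraries against 165 and 182 CPM in WT libraries, with 6 of 8 called lower. The part of these marker differences in the results on the 35 genes was not tested. In bulk RNA, fewer cells of a type and less RNA per cell cannot be told apart.

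Together the 35 genes gave 1.37% and 1.28% of all counts in KO libraries, against 1.55% and 1.50% in WT libraries. They gave 1.44% and 1.40% in siTfap4 libraries, against 1.51% and 1.58% in siNeg libraries. Ncl and Npm1 hold about as many counts as all other members together, and without them the shares were 0.645% and 0.658% in KO libraries, against 0.826% and 0.775% in WT libraries. Without them the siTfap4 libraries gave 0.759% and 0.731%, against 0.730% and 0.724% in siNeg libraries. The summed share was therefore lower in both KO libraries than in both WT libraries in either form. In the siPOOL set the order of the groups depended on Ncl and Npm1. Without these genes siTfap4 replicate 2 (0.731%) and siNeg replicate 1 (0.730%) were nearly equal. All these shares are of library totals without TMM factors. With 2 libraries against 2, an exact permutation test cannot give a two-sided p below 0.33, and these shares were not tested.

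**Figure D1:**
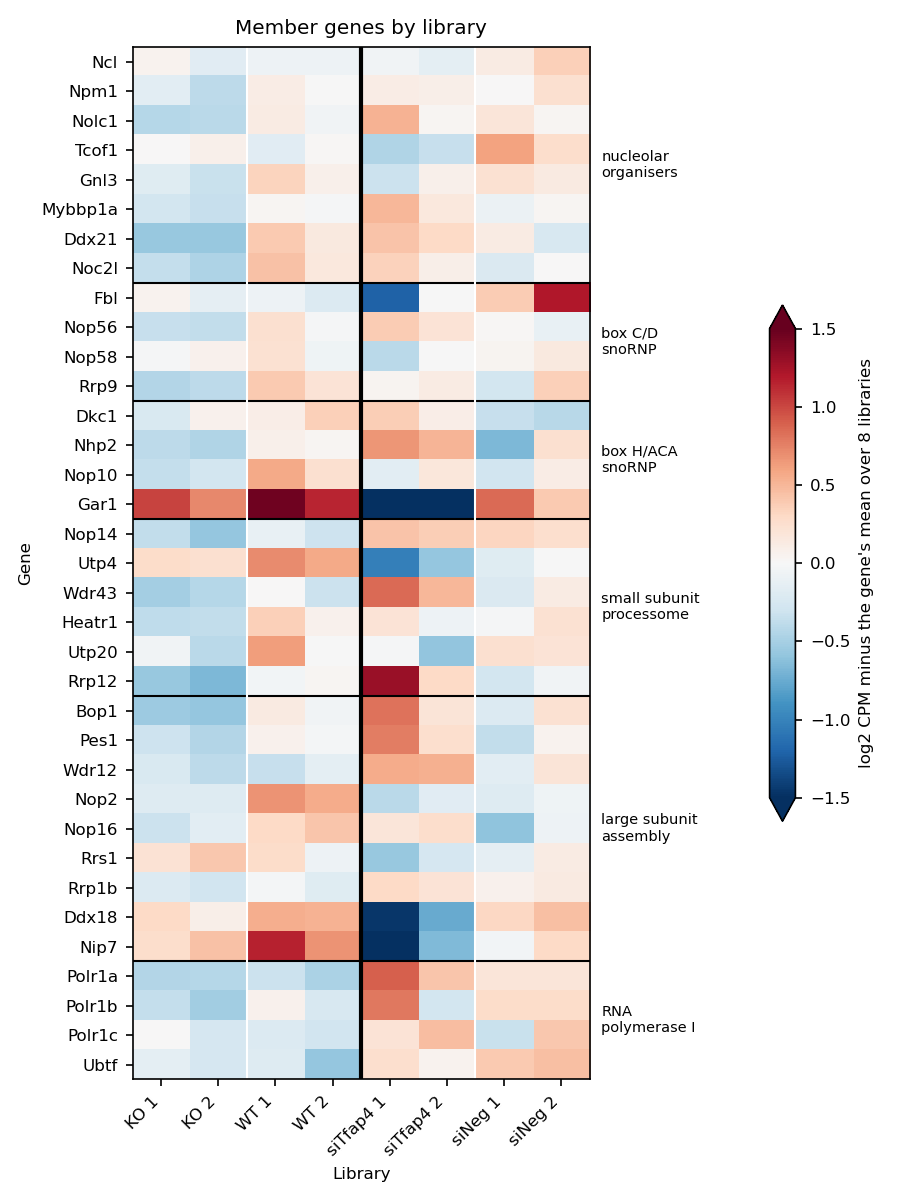
Level of each of the 35 genes in each of the 8 libraries, as log2 CPM minus the gene's mean over the libraries, with genes in rows grouped by role and libraries in columns. Colours are capped at the ends of the scale, and the black vertical line parts the preparation sets. The KO mean is the lowest of the 4 groups in 20 rows, and Gar1 stands out as low in both siTfap4 columns.

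The question in the first comparison is how the 35 genes differ between knockout and wild-type cells. They were modestly lower in KO cells across nearly all roles: 29 of 35 fitted log2 fold changes (KO over WT) were below 0, against 50.5% of all tested genes. The median was -0.38, against -0.01 for all tested genes, and single genes lay between -0.84 and 0.20. Both KO libraries lay below both WT libraries in 26 of 35 genes (74.3%) and above both in none, where all tested genes gave 28.6% and 28.9%. Only Ddx21 and Nop2 passed the test across all genes, both lower, which is 5.71% of the members, against a background of 9.95% of tested genes called in either direction (5.99% higher and 3.96% lower). At an unadjusted p under 0.05 there were 9 members (25.7%), against 23.3% of tested genes. The count of calls is thus near the background, and the shared direction is a description of a median and not a tested result. A lower level of this group in KO cells was already known from these data when the genes were chosen, so the median adds no independent support to it.

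**Figure D2:**
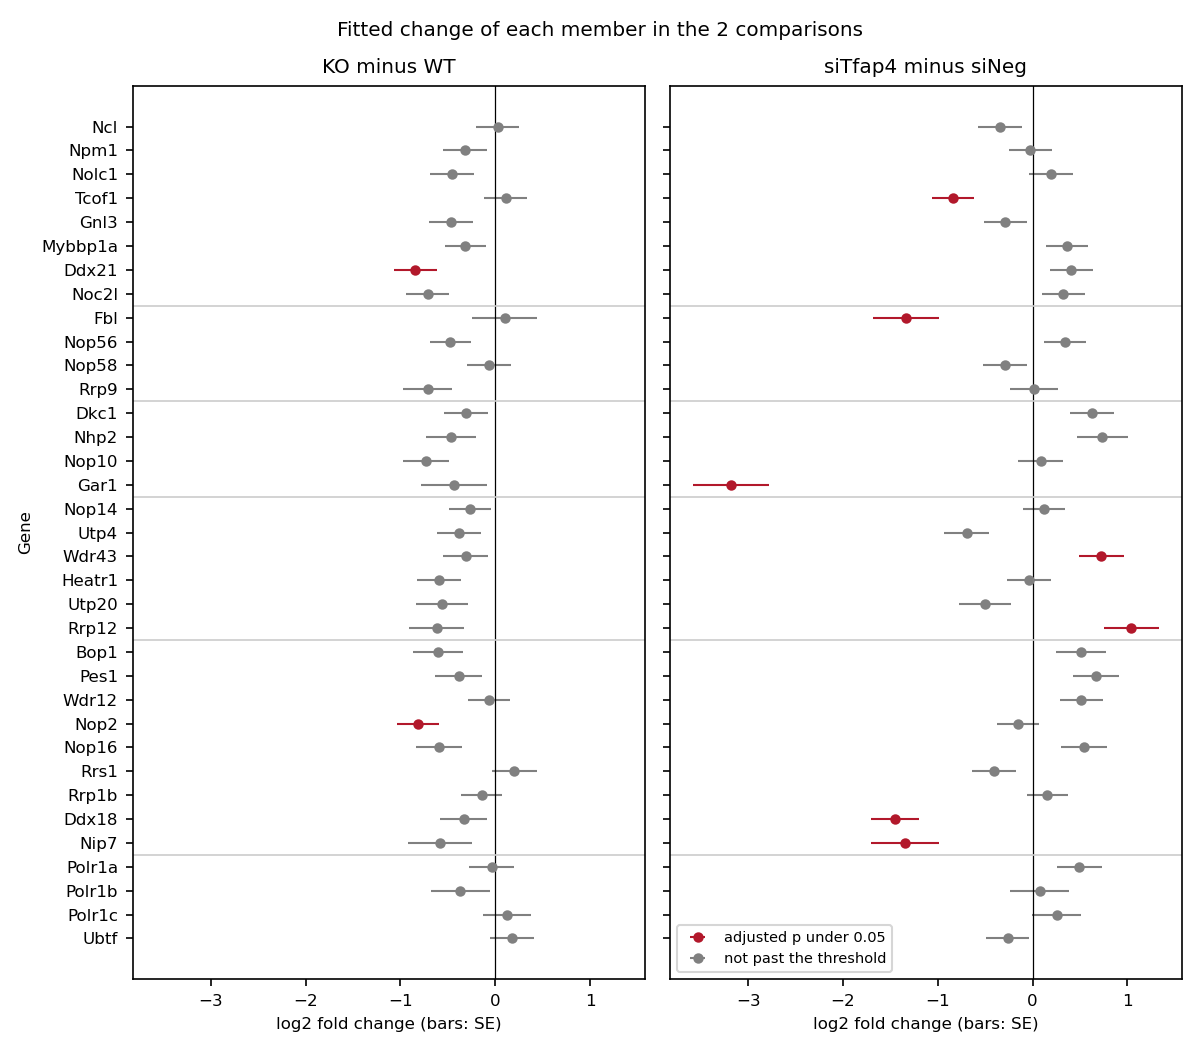
Fitted log2 fold change of each of the 35 genes with bars of 1 standard error, KO over WT in the left panel and siTfap4 over siNeg in the right panel, grouped by role, with called genes marked. On the left most points sit between -0.84 and 0, and on the right the points spread to both sides of 0 with Gar1 at -3.18.

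Among the nucleolar organisers, Ddx21, an RNA helicase that acts in ribosomal DNA transcription and precursor processing (ENSMUSG00000020075, chr10:62580251-62602281), had 178 and 178 CPM in KO libraries, against 347 and 291 CPM in WT libraries. Both KO libraries were below both WT libraries, and the fall was 0.84 on the log2 scale (SE 0.23, adjusted p = 0.0262, edgeR quasi-likelihood test with Benjamini-Hochberg adjustment). Leaving out KO replicate 1, KO replicate 2, WT replicate 1 or WT replicate 2 each ended the call (adjusted p between 0.061 and 0.206), with a log2 fold change between -0.96 and -0.70. Noc2l, a nucleolar repressor of histone acetyltransferases, had 103 and 96.4 CPM in KO libraries, against 180 and 148 CPM in WT libraries, with a log2 fold change of -0.71 (SE 0.23) that narrowly missed the threshold (adjusted p = 0.0602, edgeR).

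The other organisers were not called in KO cells. Nolc1, a chaperone of snoRNPs, had 172 and 174 CPM in KO libraries, against 251 and 224 CPM in WT libraries. Gnl3 (nucleostemin, a nucleolar GTPase of stem cells) had 257 and 231 CPM in KO libraries, against 367 and 307 CPM in WT libraries. Mybbp1a, which acts in RNA polymerase I transcription, had 247 and 235 CPM in KO libraries, against 305 and 295 CPM in WT libraries. In these 3 genes and in Npm1, the nucleolar chaperone nucleophosmin (2545 and 2171 CPM in KO libraries, 3059 and 2828 CPM in WT libraries), the groups did not overlap. Ncl (nucleolin, an abundant nucleolar RNA-binding protein) and Tcof1 (treacle, which links RNA polymerase I with precursor modification) did overlap between KO and WT, with log2 fold changes of 0.02 and 0.11 (SE 0.23 and 0.22). Over all 8 organisers the median was -0.39, and 6 of 8 groups lay apart in the lower direction.

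Of the 4 box C/D proteins none was called in KO cells, and the median was -0.27. Rrp9, a protein specific to the U3 snoRNP, had 37.2 and 38.4 CPM in KO libraries, against 65.9 and 58.1 CPM in WT libraries (log2 fold change -0.71, SE 0.26, edgeR adjusted p = 0.0925). Nop56, a scaffold of the particle, had 209 and 206 CPM in KO libraries, against 313 and 262 CPM in WT libraries. Its partner Nop58 and the methyltransferase fibrillarin, Fbl, overlapped between the groups.

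The 4 box H/ACA proteins were all lower in both KO libraries than in both WT libraries, with a median of -0.45, and none was called. Nop10, the smallest core protein, had 249 and 265 CPM in KO libraries, against 475 and 378 CPM in WT libraries (log2 fold change -0.73, SE 0.24, edgeR adjusted p = 0.0633). Dkc1, the pseudouridine synthase dyskerin, had 762 and 932 CPM in KO libraries, against 952 and 1144 CPM in WT libraries. Nhp2 had 117 and 112 CPM in KO libraries, against 161 and 156 CPM in WT libraries, and Gar1 had 167 and 137 CPM, against 228 and 183 CPM. Of these core proteins Dkc1 came closest to overlap, with KO replicate 2 just under WT replicate 1.

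All 6 genes of the small subunit processome had a log2 fold change below 0 and no overlap between KO and WT, with a median of -0.47, and none was called. Rrp12, a HEAT-repeat protein of 40S maturation, had 30.5 and 28.4 CPM in KO libraries, against 44.1 and 46.2 CPM in WT libraries. Heatr1 had 93.1 and 93.6 CPM in KO libraries, against 155 and 127 CPM in WT libraries. Utp20 had 76.3 and 59.8 CPM in KO libraries, against 122 and 78.6 CPM in WT libraries, and its duplicates lay farther apart than those of any other member in both groups. The fitted values of these 3 were -0.62, -0.59 and -0.56 (SE 0.29, 0.23 and 0.27). Wdr43 had 383 and 405 CPM in KO libraries, against 545 and 433 CPM in WT libraries. Utp4 had 125 and 122 CPM in KO libraries, against 169 and 153 CPM, and Nop14 had 131 and 113 CPM, against 157 and 136 CPM, in WT libraries. These 3 showed the smaller shifts of the group, between -0.38 and -0.26.

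Among 9 large subunit assembly genes Nop2 was called, and the median was -0.39. Nop2, an RNA methyltransferase of the large subunit RNA (ENSMUSG00000038279, chr6:125131909-125144753), had 110 and 110 CPM in KO libraries, against 201 and 186 CPM in WT libraries. The fall was 0.81 on the log2 scale (SE 0.22, edgeR adjusted p = 0.0273), with the KO libraries nearly equal and both far below WT. As for Ddx21, each of the 4 leave-outs ended the call (adjusted p between 0.0895 and 0.218, log2 fold change between -0.87 and -0.75).

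Pes1, Bop1 and Wdr12 form the PeBoW complex of large subunit assembly, and none of them was called. Bop1 had 34.1 and 33.2 CPM in KO libraries, against 54.6 and 47.7 CPM in WT libraries, and Pes1 had 105 and 96.3 CPM, against 136 and 127 CPM. Wdr12 had 148 and 132 CPM in KO libraries, against 137 and 157 CPM in WT libraries, so its groups overlapped, but 80.6% of its last 200 bases share 31-base words with other genes and its counts are uncertain. Nop16 (57.4 and 64.5 CPM in KO, 88.5 and 95.5 CPM in WT) and Nip7 (85.1 and 96.2 CPM in KO, 158 and 113 CPM in WT) were lower in both KO libraries than in both WT libraries. The same held for the helicase Ddx18 (171 and 148 CPM in KO, 202 and 201 CPM in WT) and for Rrp1b (199 and 189 CPM in KO, 226 and 203 CPM in WT). Rrs1 had 169 and 192 CPM in KO libraries, against 175 and 138 CPM in WT libraries, with the highest fitted value of the 35 (0.20, SE 0.23).

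The 4 RNA polymerase I genes had a median of 0.04, the closest to 0 of the 6 roles, and no call. Polr1a, the largest catalytic subunit, had 73.2 and 74.0 CPM in KO libraries, against 79.7 and 71.3 CPM in WT libraries. Polr1c, shared with RNA polymerase III, had 190 and 159 CPM in KO libraries, against 164 and 155 CPM in WT libraries, and Ubtf, the HMG-box factor that opens ribosomal DNA, had 100 and 93.3 CPM, against 97.0 and 74.1 CPM. The groups overlapped in these 3. Polr1b had 18.7 and 16.7 CPM in KO libraries, against 25.3 and 20.5 CPM in WT libraries, and 61.8% of its last 200 bases share words with other genes. Whether the shift of polymerase I genes differs from that of the other roles was not tested.

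The second comparison asks how the same genes differ when Tfap4 is targeted in knockout cells. They did not move together: 5 members fell in siTfap4 cells, 2 rose, and the median was 0.09, against 0.01 for all tested genes. The box H/ACA protein Gar1 fell most, to 6.63 and 21.7 CPM in siTfap4 libraries, against 149 and 109 CPM in siNeg libraries. The called share was 20% of members, against a background of 15.4% called in either direction, with 11.1% of tested genes called lower and 4.36% higher. In 14 of 35 members both siTfap4 libraries lay above both siNeg libraries and in 12 below both, or 40% and 34.3%, where all tested genes gave 28.9% and 29.3%. At an unadjusted p under 0.05 there were 14 members (40%), against 30.9% of tested genes. The calls over all tested genes were 660 higher and 1674 lower. With upper-quartile factors they were 1127 higher and 1442 lower, and with the 4 siPOOL libraries alone 324 higher and 1469 lower. Upper-quartile factors put the median of all tested genes at 0.12 and that of the members at 0.20.

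**Figure D3:**
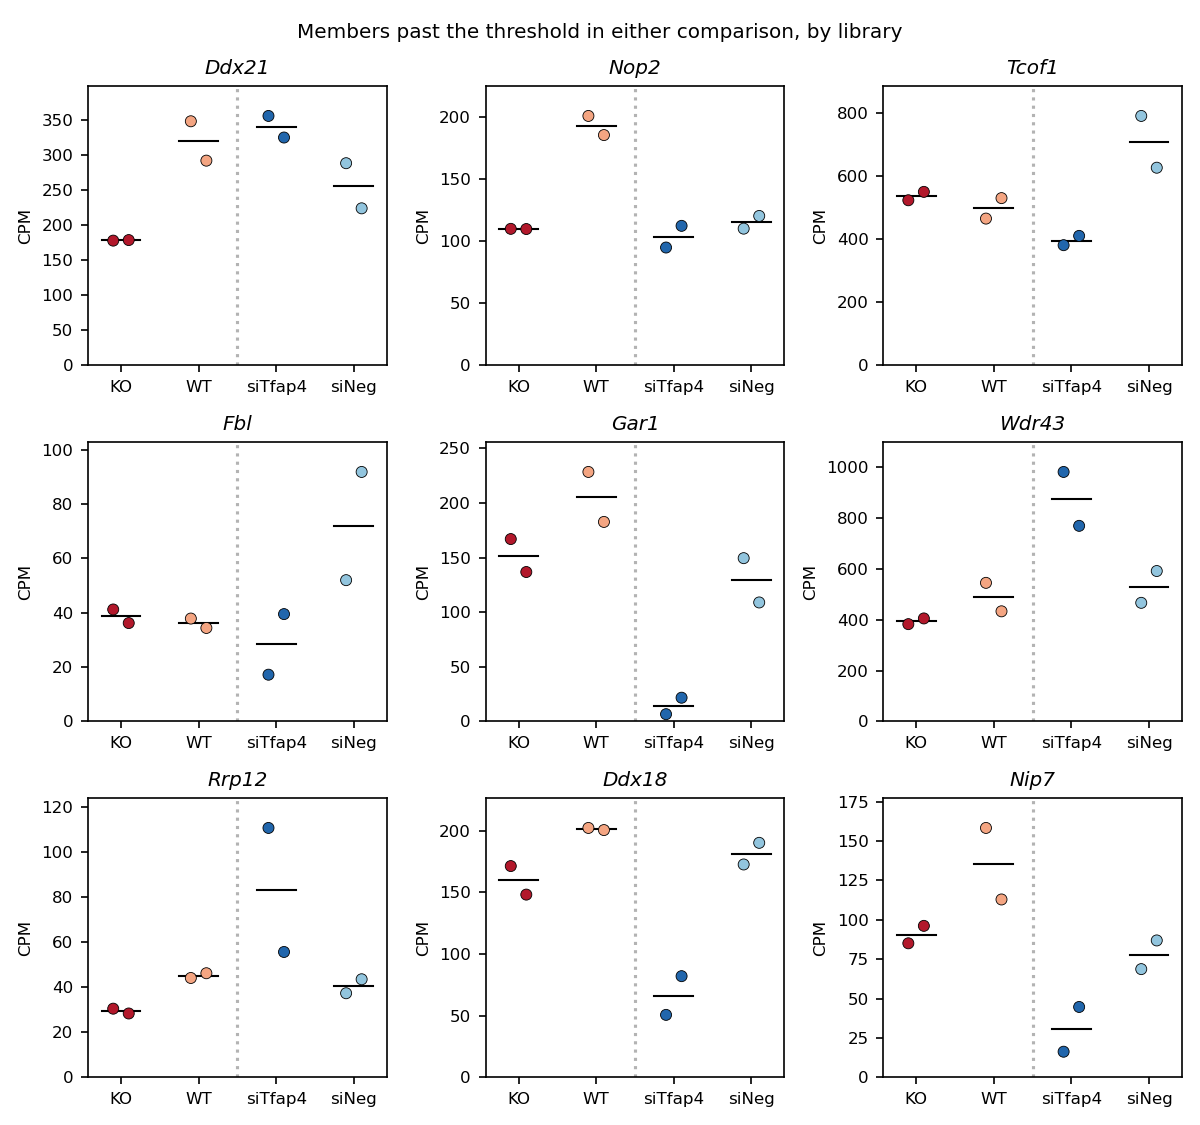
CPM of each of the 9 called members in each of the 8 libraries, 1 panel a gene, on linear axes that start at 0, with 1 point a library and a line at the mean of each group of 2. The dotted line parts the preparation sets. Gar1 is at 6.63 and 21.7 CPM in siTfap4 libraries, and Ddx21 and Nop2 have nearly equal KO duplicates below both WT points.

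Gar1 (ENSMUSG00000028010, chr3:129824912-129831396) lay below siNeg in both siTfap4 libraries, and below every other library in the series, though the siTfap4 duplicates differed by 1.68 on the log2 scale, the widest gap of any member. Its log2 fold change was -3.18 (SE 0.40, edgeR adjusted p = 0.000166), which is 9.06-fold lower. The call held in all 4 leave-outs (log2 fold change between -4.30 and -2.58) and in all 10 other alternatives. The other 3 core proteins of the same particle were not called and had fitted values above 0. Nhp2 had 243 and 217 CPM in siTfap4 libraries, against 96.1 and 181 CPM in siNeg libraries (log2 fold change 0.74, SE 0.27, edgeR adjusted p = 0.0714). Dkc1 had 1154 and 955 CPM in siTfap4 libraries, against 703 and 666 CPM in siNeg libraries (0.62, SE 0.23, adjusted p = 0.0776 in edgeR). It passed the threshold in 4 of 10 other alternatives. Among these were the correction for base composition (edgeR adjusted p = 0.0105), upper-quartile factors (0.0404 in edgeR) and DESeq2 (adjusted p = 0.0387). Nop10, at 287 and 360 CPM in siTfap4 libraries against 263 and 346 CPM in siNeg libraries, overlapped.

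Ddx18, a helicase of large subunit assembly (ENSMUSG00000001674, chr1:121553835-121567989), had 50.7 and 82.1 CPM in siTfap4 libraries, against 173 and 190 CPM in siNeg libraries. It fell by 1.45 on the log2 scale (SE 0.25, edgeR adjusted p = 0.00135), and this call too held in all 4 leave-outs and all 10 other alternatives, with leave-outs between -1.85 and -1.15. Nip7, a small factor needed for late precursor processing (ENSMUSG00000031917, chr8:107056877-107060931), had 16.3 and 44.7 CPM in siTfap4 libraries, against 68.7 and 86.9 CPM in siNeg libraries. Its fall of 1.35 (SE 0.36, edgeR adjusted p = 0.0211) was lost without siTfap4 replicate 1 (0.180), siNeg replicate 1 (0.0795) or siNeg replicate 2 (0.108).

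Fbl, the box C/D methyltransferase (ENSMUSG00000046865, chr7:28169710-28179269), had 17.2 and 39.5 CPM in siTfap4 libraries, against 52.0 and 91.9 CPM in siNeg libraries. The duplicates of both groups lay far apart without overlapping, and the fall of 1.34 (SE 0.35, edgeR adjusted p = 0.0181) was lost without siTfap4 replicate 1 (0.205) or siNeg replicate 2 (0.150). Tcof1 (ENSMUSG00000024613, chr18:60813755-60848971) had 381 and 411 CPM in siTfap4 libraries, against 791 and 627 CPM in siNeg libraries. Its fall of 0.84 (SE 0.23, edgeR adjusted p = 0.0204) was lost without siTfap4 replicate 1 (0.120) or siNeg replicate 1 (0.113), and in a fit of the 4 siPOOL libraries alone (0.0646).

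The 2 members that rose both belong to the small subunit processome. Wdr43 (ENSMUSG00000041057, chr17:71615895-71659031) had 981 and 769 CPM in siTfap4 libraries, against 466 and 592 CPM in siNeg libraries. Rrp12 (ENSMUSG00000035049, chr19:41862851-41896173) had 111 and 55.7 CPM in siTfap4 libraries, against 37.4 and 43.6 CPM in siNeg libraries. The groups did not overlap in either gene, but in Rrp12 siTfap4 replicate 1 lay farther above its duplicate than that duplicate lay above siNeg. The rises were 0.73 (SE 0.24, edgeR adjusted p = 0.0485) for Wdr43 and 1.04 (SE 0.29, edgeR adjusted p = 0.0248) for Rrp12. Wdr43 lost its call without siTfap4 replicate 1 (0.307) or siNeg replicate 1 (0.253). Rrp12 lost its call without siTfap4 replicate 1 (0.414), siNeg replicate 1 (0.183) or siNeg replicate 2 (0.0655), and under the correction for base composition (0.112).

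Of the other small subunit genes, Utp4 had 50.6 and 69.2 CPM in siTfap4 libraries, against 91.3 and 103 CPM in siNeg libraries (log2 fold change -0.70, SE 0.24, edgeR adjusted p = 0.0561), and Utp20 (78.0 and 52.4 CPM in siTfap4, 93.5 and 90.9 CPM in siNeg) was also below siNeg in both libraries. Nop14 (228 and 220 CPM in siTfap4, 211 and 201 CPM in siNeg) and Heatr1 (140 and 115 CPM in siTfap4, 119 and 142 CPM in siNeg) lay close to their controls. In the PeBoW complex Pes1 had 221 and 156 CPM in siTfap4 libraries, against 101 and 135 CPM in siNeg libraries (0.67, SE 0.25, edgeR adjusted p = 0.0729). Bop1 had 87.7 and 57.0 CPM in siTfap4 libraries, against 43.1 and 58.4 CPM in siNeg libraries, and Wdr12 had 255 and 250 CPM, against 156 and 198 CPM. All 3 fitted values of the complex were above 0, at 0.67, 0.51 and 0.51, and none passed the test. Bop1 overlapped between the groups, and the counts of Wdr12 are uncertain, with 80.6% of its last 200 bases shared with other genes. Nop16 (81.4 and 86.0 CPM in siTfap4, 47.3 and 67.8 CPM in siNeg) and Rrp1b (284 and 264 CPM in siTfap4, 239 and 253 CPM in siNeg) were above siNeg in both libraries, Rrs1 (98.0 and 122 CPM in siTfap4, 132 and 159 CPM in siNeg) below it. Nop2, called in KO cells, overlapped here at 95.0 and 113 CPM in siTfap4 libraries and 110 and 121 CPM in siNeg libraries.

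The organisers other than Tcof1 were not called in the siPOOL set and lay on both sides of control. Ddx21 had 355 and 324 CPM in siTfap4 libraries, against 288 and 224 CPM in siNeg libraries (0.41, SE 0.23, edgeR adjusted p = 0.23), and passed only with the correction for base composition (0.0183). Mybbp1a (420 and 332 CPM in siTfap4, 279 and 304 CPM in siNeg) and Noc2l (169 and 141 CPM in siTfap4, 114 and 133 CPM in siNeg) were above siNeg in both libraries. Ncl (4173 and 3917 CPM in siTfap4, 4727 and 5551 CPM in siNeg) and Gnl3 (234 and 307 CPM in siTfap4, 342 and 319 CPM in siNeg) were below it in both. Npm1 (3076 and 3022 CPM in siTfap4, 2844 and 3350 CPM in siNeg) and Nolc1 (332 and 237 CPM in siTfap4, 262 and 235 CPM in siNeg) overlapped. In the box C/D group Nop56 was above siNeg in both libraries, Nop58 below it, and Rrp9 overlapped, with fitted values of 0.34, -0.29 and 0.01.

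The polymerase I members were again not called. Polr1a had 184 and 133 CPM in siTfap4 libraries, against 112 and 113 CPM in siNeg libraries (0.49, SE 0.23, edgeR adjusted p = 0.161), and Ubtf had 132 and 115 CPM, against 145 and 152 CPM. Polr1b (41.5 and 19.9 CPM in siTfap4, 29.0 and 29.1 CPM in siNeg) and Polr1c (218 and 260 CPM in siTfap4, 150 and 250 CPM in siNeg) overlapped, with Polr1b duplicates on either side of siNeg.

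The difference between the comparisons, (KO minus WT) minus (siTfap4 minus siNeg), was tested in the same fit and was called for 9 members (25.7%), against a background of 15.9% of tested genes (11.3% above 0 and 4.6% below 0). In Gar1 (2.74, SE 0.52, edgeR adjusted p = 0.00349) and Ddx18 (1.11, SE 0.35, adjusted p = 0.0412 in edgeR) the change with the Tfap4 siPOOL was the lower one. In the other 7 the KO change was the lower one: Rrp12 (-1.66, edgeR adjusted p = 0.0135), Ddx21 (-1.25, 0.0154), Nop16 (-1.13, 0.0342), Noc2l (-1.04, 0.0391), Nhp2 (-1.20, 0.0404), Wdr43 (-1.04, 0.0455) and Pes1 (-1.06, 0.048). Gar1 kept the call in all 8 leave-outs. Ddx21 lost it without KO replicate 1, KO replicate 2 or WT replicate 1 (adjusted p up to 0.0858), and Rrp12 without KO replicate 2, siTfap4 replicate 1 or siNeg replicate 1 (up to 0.0781). The other 6 each lost it without every KO and WT library, without siTfap4 replicate 1 and without siNeg replicate 1, and Ddx18 also without siNeg replicate 2 and Nop16 without siTfap4 replicate 2 (adjusted p up to 0.189). With no filter on low counts Noc2l (0.0704), Nop16 (0.0548), Pes1 (0.0713) and Wdr43 (0.052) were not called, Tcof1 was (0.0409), and the 6 calls were then 3 above 0 and 3 below 0. The members' median difference was -0.53, against 0.06 for all tested genes. The correction for base composition was not run for this difference, nor were upper-quartile factors or library size alone.

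Placing both fitted values side by side, 19 members were below 0 in KO against WT and above 0 in siTfap4 against siNeg, 10 were below 0 in both, 5 were above and then below, and 1 was above in both. Across the 35 genes the correlation of both fold changes was weak (Pearson r = -0.16, Spearman rho = -0.20), against r = -0.03 over 15137 tested genes; genes are not independent replicates and share their libraries.

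**Figure D4:**
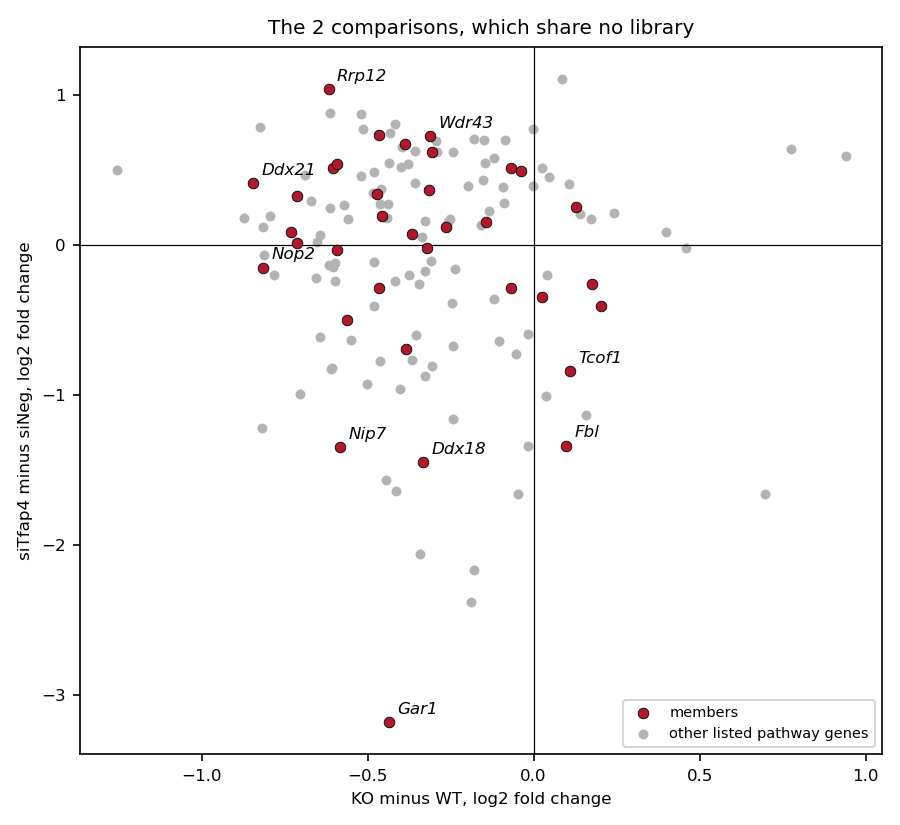
Each of the 35 genes as a point, with its log2 fold change in siTfap4 over siNeg against that in KO over WT, in red with the 9 called members named, and the 108 other tested pathway genes in grey. Of the members, 29 lie left of 0, 19 of them in the upper left field, and Gar1 lies far below the rest.

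Base composition of the 3′ end moved with the siPOOL comparison. Across 15126 tested genes the siTfap4 over siNeg fold change correlated with the GC percent of the last 100 transcript bases (r = 0.35), and across the 35 members weakly (r = 0.23), while for KO over WT r was -0.02 over all and -0.29 over the members. The members' median GC was 37.0%, the same as for all tested genes. Ddx18 has 21% and Gar1 32% GC there, and Rrp12 has 47%. With a correction for GC, Gar1, Ddx18, Fbl, Nip7 and Tcof1 stayed called lower and Wdr43 higher, Rrp12 was no longer called, and Ddx21, Dkc1 and Wdr12 (adjusted p = 0.0181, edgeR) were called higher. The members' median was then -0.04 in siTfap4 against siNeg, in place of 0.09.

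Untreated KO cells and siNeg cells share the knockout, and their levels are set side by side without a test because they come from different sets, in which transfection and preparation cannot be told apart. The 35 genes were mostly higher in siNeg cells: 29 of 35 fitted values (siNeg over KO) were above 0, with a median of 0.34, against -0.02 for all tested genes. In 24 of 35 both siNeg libraries lay above both KO libraries and in 3 below both, where all tested genes gave 20.5% and 24.4%. KO cells had the lowest mean of the 4 groups in 20 of 35 members (57.1%), against 17.6% of all tested genes, and the highest in 1. The lowest mean was in siTfap4 cells for 11 members, among them Gar1, Ddx18, Fbl, Nip7 and Tcof1, and the highest in siTfap4 cells for 16. These are 31.4% and 45.7% of the members, against 35.4% and 34.4% of all tested genes. The level of Nop2 hardly differed, with 110 and 121 CPM in siNeg libraries and 110 and 110 CPM in KO libraries. Ddx21 had 288 and 224 CPM in siNeg libraries, against 178 and 178 CPM in KO libraries.

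The rest of the pathway was described with 109 further genes for ribosome assembly, polymerase I and snoRNP assembly, of which 108 were tested. In KO cells 93 of 108 had a fold change below 0, with a median of -0.36, while 6 were called lower and 1 higher (6.48%, against the background of 9.95%). Both KO libraries lay below both WT libraries in 65 of 108 (60.2%), against 28.6% of all tested genes. The large subunit list had 3 called lower of 44 at a median of -0.42, the small subunit list 1 of 44 at -0.35, and the list of snoRNP assembly factors 2 lower and 1 higher of 9 at -0.36. Of 11 polymerase I genes outside the 35 none was called, with a median of -0.09, so the polymerase I genes of both lists showed the smallest medians.

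**Figure D5:**
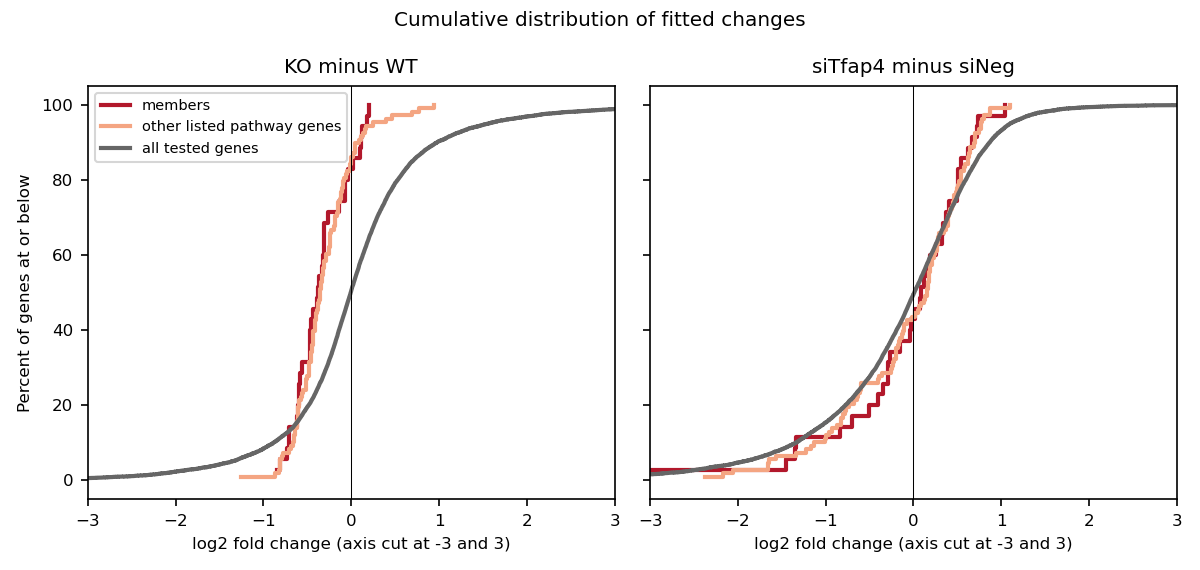
Cumulative share of genes at or below each fitted log2 fold change, for the 35 members, the 108 other tested pathway genes and all 15137 tested genes, with KO over WT left and siTfap4 over siNeg right and the axis cut at -3 and 3. Left, the members and the other pathway genes run together to the left of all tested genes, and right, all 3 curves lie close to each other.

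Senp3, a SUMO protease that acts on nucleolar proteins, had 63.5 and 41.9 CPM in KO libraries, against 149 and 103 CPM in WT libraries, and fell by 1.25 on the log2 scale (SE 0.27, edgeR adjusted p = 0.00704). Its call was lost without KO replicate 2 (0.147) or WT replicate 1 (0.088). Lyar, a nucleolar protein of embryonic stem cells, had 268 and 250 CPM in KO libraries, against 472 and 437 CPM in WT libraries (-0.81, SE 0.22, edgeR adjusted p = 0.0263). Mphosph10, a U3 component, had 77.4 and 76.5 CPM in KO libraries, against 151 and 130 CPM in WT libraries (-0.87, SE 0.23, edgeR adjusted p = 0.0222). The GTPase Gnl2 (-0.79), the snoRNP assembly factor Znhit6 (-0.82) and the ATPase Ruvbl2 (-0.82) also fell, and Pih1d1, a partner of Ruvbl2 in snoRNP assembly, rose by 0.94. Lyar, Mphosph10, Gnl2, Znhit6, Ruvbl2 and Pih1d1 were each no longer called in any of the 4 leave-outs (adjusted p between 0.0579 and 0.294). Taf1d and Rrn3, initiation factors named for their mean level in the polymerase I list, had log2 fold changes of -0.37 and -0.33 and were not called.

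In siTfap4 cells 17 of the 108 were called lower and 8 higher (23.1%, against the background of 15.4%), with a median of 0.16. The larger falls were seen in single factors of each list. Nob1, the nuclease that trims the small subunit RNA, had 7.77 and 10.9 CPM in siTfap4 libraries, against 55.2 and 41.8 CPM in siNeg libraries (-2.38, SE 0.29, edgeR adjusted p = 7e-05). Nmd3, the export adaptor of the large subunit, had 16.7 and 21.5 CPM in siTfap4 libraries, against 89.4 and 82.3 CPM in siNeg libraries (-2.17, SE 0.27, edgeR adjusted p = 9.63e-05). In KO against WT neither was called, with log2 fold changes of -0.19 for Nob1 and -0.18 for Nmd3. Shq1, the chaperone that holds dyskerin before it joins the H/ACA particle, had 5.48 and 5.07 CPM in siTfap4 libraries, against 21.1 and 22.9 CPM in siNeg libraries (-2.06, SE 0.30, edgeR adjusted p = 0.000285). Polr1d, a subunit shared by RNA polymerases I and III, had 40.3 and 68.9 CPM in siTfap4 libraries, against 143 and 203 CPM in siNeg libraries (-1.66, SE 0.28, edgeR adjusted p = 0.000923).

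Ebna1bp2 (-1.64), Rsl24d1 (-1.57) and Wdr75 (-1.34) fell too, and these 3, like Nob1, Nmd3, Shq1 and Polr1d, kept the call in all 4 leave-outs. Rsl1d1 (-1.16), the initiation factor Taf1b (-1.66) and Ruvbl2 (-1.22) were not called without siTfap4 replicate 1 (edgeR adjusted p = 0.0795, 0.0534 and 0.0798). Emg1 (-1.13) and Polr1h (-0.78) were not called without siTfap4 replicate 1 (0.166 and 0.255) or siNeg replicate 2 (0.0834 and 0.182). Nol10 (-0.96), Taf1c (1.11) and Znhit6 (0.78) each lost the call without siTfap4 replicate 1, siNeg replicate 1 or siNeg replicate 2 (adjusted p between 0.0609 and 0.375). Under the GC correction Rsl1d1 (0.0504), Nol10 (0.0913) and Taf1c (0.129) were not called. Ruvbl2 is the gene of the named ones that fell in both comparisons, and Znhit6 was lower in KO cells and higher in siTfap4 cells.

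Of the MYC-family E-box factors, Mycn had 200 and 177 CPM in KO libraries, against 103 and 67.4 CPM in WT libraries (1.14, edgeR adjusted p = 0.0362), and 35.5 and 85.3 CPM in siTfap4 libraries, against 142 and 142 CPM in siNeg libraries (-1.24, edgeR adjusted p = 0.021). Its call was lost without KO replicate 1 (0.178), KO replicate 2 (0.0921) or WT replicate 2 (0.247), and in the siPOOL set without siTfap4 replicate 1 (0.197), siNeg replicate 1 (0.123) or siNeg replicate 2 (0.0765), and under the GC correction (0.0809). Max, the partner of MYC proteins, fell in siTfap4 cells (60.8 and 110 CPM, against 186 and 204 CPM in siNeg cells, -1.19, edgeR adjusted p = 0.00706), though not without siTfap4 replicate 1 (0.087). Myc was not called, with 10.1 and 16.3 CPM in KO libraries against 42.6 and 14.8 CPM in WT libraries, and 1.27 and 1.53 CPM in siTfap4 libraries against 11.6 and 1.94 CPM in siNeg libraries, and Mycl was called in neither comparison. The part of these factors in the levels of the 35 genes was not tested.

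Duplicates of the 35 genes agreed most closely in KO cells and least in siTfap4 cells: the median absolute log2 gap between duplicates was 0.10 in KO, 0.19 in WT, 0.31 in siTfap4 and 0.23 in siNeg, against 0.23, 0.32, 0.41 and 0.37 over all tested genes. When counts were simulated from these libraries' means, the KO against WT test called 35% of true 2-fold changes and 97% of true 4-fold ones, and the siTfap4 against siNeg test 34% and 95%. The simulation changed only 100 genes at each size, while 1506 and 2334 genes were called in the data. With fewer changed genes the adjusted threshold is stricter. These shares therefore do not give the rate at which changes in the members would be called. Mybbp1a, Noc2l, Nop56, Dkc1, Nhp2, Heatr1 and Bop1 have a gene on the opposite strand at their 3′ end, and since the strand setting of the counting is not given, reads of such pairs cannot be told apart. None of the 2 members called in KO against WT or the 7 called in siTfap4 against siNeg is among them, while Noc2l and Nhp2, called for the difference between the comparisons, are.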

How the data were processed

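The authors deposited raw counts per gene for 8 libraries in 1 table. Per the submitters' processing notes, reads were handled with Trim Galore and GRCm38. The aligner, counter and strand setting were not given in the sources used here. Columns were matched to the labels by name. The 35 members and the further gene lists were chosen with earlier results of these data known.

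Genes were filtered with filterByExpr, which left 15137 of 55421, and scaled with TMM factors. A robust quasi-likelihood model in edgeR 4.0.16 (limma 3.58.1, R 4.3.3) took the 8 libraries as 4 group means and left 4 residual degrees of freedom. Two-sided p-values received Benjamini-Hochberg adjustment over all tested genes, and called means an adjusted p under 0.05. Levels are CPM computed here from the counts with TMM factors, except the summed marker levels, which are without these factors.

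The genes named are all 35 members, Tfap4, the Myc family and Max, and of each further list up to 4 called genes per comparison with the largest change, or the 2 with the highest mean CPM where none was called. Nopchap1, on the snoRNP assembly list, was not matched. Alternatives were DESeq2 1.42.0, other scaling factors and filters, a fit of 4 libraries only, the replicate block, a GC correction from the last 100 transcript bases (lowess, span 0.3), and the omission of each library. For the difference of the comparisons only DESeq2, RLE factors, no filter on low counts, the replicate block and the omission of each library were run. Gene positions and 3′ UTRs came from GENCODE on GRCm38, and promoters and microRNAs from RefSeq tables on GRCm38.p6. Genes were taken as uncertain where over 50% of the last 200 bases share 31-base words with other genes. Fbl (35.3%), Noc2l (43.5%) and Nop56 (47.1%) lay below this cut but share part of their ends. The fit was run on simulated data, with 3 and 7 false calls among 14590 and 14611 genes in the KO and siTfap4 designs. Those counts were drawn with the spread that the fit itself had estimated, and with no trend on base composition. They therefore do not give the rate of false calls in the data.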

Additional observations from a re-analysis of the deposited data

How the results depend on the processing

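The members' median in KO against WT stayed below 0 under every alternative run, and was -0.47 to -0.30 with 1 library left out. The count of members called in KO against WT was 2, and 4 with upper-quartile factors, 7 with the 4 libraries of the comparison alone, 4 with DESeq2 and 0 in each leave-out. All tested genes gave 1506 calls there, and 629 to 880 in the leave-outs.

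In siTfap4 against siNeg, 7 members were called, and 2 to 10 in the leave-outs, with 2 without siTfap4 replicate 1, 10 without siTfap4 replicate 2, 3 without siNeg replicate 1 and 5 without siNeg replicate 2. The members' median of 0.09 became 0.20 with upper-quartile factors, -0.042 with the GC correction and -0.030 with the replicate block and the GC correction together, and it was -0.084 to 0.11 in the leave-outs. All tested genes gave 2334 calls, and 522 to 2961 in the leave-outs. The cause was not tested. Wdr43 also lost its call with RLE factors (edgeR adjusted p = 0.0503), library size alone (0.0576), no filter (0.0579) and the 4 siPOOL libraries alone (0.155). With upper-quartile factors Dkc1 (edgeR adjusted p = 0.0404), Nhp2 (0.0425) and Pes1 (0.0404) were called higher. Utp4 was called lower with library size alone (edgeR adjusted p = 0.0433) and with DESeq2 (adjusted p = 0.0384).

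The difference of the comparisons gave 2400 calls over all tested genes, and 1159 to 2733 in the leave-outs. It was called for 9 members, for 6 with no filter on low counts, and for 1 to 13 in the leave-outs, with a median of -0.57 to -0.34 there.

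Libraries with the same replicate number do not deviate together beyond a weak correlation (r = -0.04 between KO and WT and 0.12 between siTfap4 and siNeg over 10329 genes). Such values cannot show whether they were prepared together. With the replicate block 2 members were called in KO against WT and 5 in siTfap4 against siNeg, where Wdr43 (adjusted p = 0.057, edgeR) and Rrp12 (0.0554) were no longer called, nor, of the other pathway genes, Taf1c (0.0575) and Znhit6 (0.061), and in KO against WT Gnl2 (0.051), Pih1d1 (0.0548) and Znhit6 (0.0627). For the difference the block gave 10 members, without Pes1 (0.0694) and Wdr43 (0.0535) and with Tcof1 (0.0487), Fbl (0.0172) and Dkc1 (0.0409). Of the other named pathway genes, Ruvbl2, Pih1d1 and Znhit6 in KO against WT and Polr1h and Znhit6 in siTfap4 against siNeg also lost the call under other scaling, filters or fits (adjusted p between 0.0517 and 0.104). In a leave-out the lone library of a group is assumed to vary like the other groups. With 2 libraries a group most simulated 2-fold changes were missed, in a simulation with fewer changed genes than were called in the data.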
